A study of Caenorhabditis elegans with 2 samples.

Results

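The cytoplasmic ribosomal protein genes of Caenorhabditis elegans were examined for regions recovered with LIN-11, a LIM homeodomain transcription factor, in chromatin immunoprecipitation and sequencing (ChIP-seq) of embryos. Members were the protein-coding genes of the WBcel235 annotation named rpl-, rps- or rla- followed by a number, which gave 81 of 19973 nuclear protein-coding genes. By name, 50 of these were counted as large subunit genes, including the 3 P-stalk genes rla-0, rla-1 and rla-2, and 31 as small subunit genes. RefSeq's product names call 77 of the 81 ribosomal proteins. The 4 others are rps-10 (Plectin/eS10 N-terminal domain), rps-30 (ubiquitin-like domain), rpl-24.2 (the putative biogenesis protein RLP24) and rpl-42 (NAM-associated domain), and rpl-36.A carries the product name eL42. Because of their names alone, rpl-24.2 and rpl-42 stayed among the 50 large subunit genes.

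Only 1 group was profiled, in 2 biological replicates, and no condition could be compared with another. The strain, OP62, carries unc-119(ed3) III and the transgene wgIs62, which expresses LIN-11 fused at its C terminus to GFP and FLAG, and chromatin was recovered with an antibody to GFP. Embryos of mixed sex, labelled late embryo at 4.25 hours with no stated point from which the hours were counted, were taken whole after egg bleaching, so each value is an average over every embryonic cell type and says nothing of the cells in which LIN-11 was bound. ChIP of worms without the tag was not analysed here. The region lists used were 4: reproducible regions, a pooled list from both replicates together, and 1 list per replicate. The last 3 were deposited as peaks together with background, so being listed there is a loose criterion and the rank in the list carries the information.

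Ribosomal proteins assemble with ribosomal RNA into the large subunit, which forms peptide bonds, and the small subunit, which decodes the messenger. Their genes are short and highly transcribed in growing cells, and in C. elegans many of their transcripts receive a trans-spliced leader, so that the annotated start of a gene can lie downstream of where transcription begins. LIN-11 is known for roles in neuron, vulval and uterine development, and no role of it at ribosomal protein genes is assumed here.

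A summit, the position of highest signal in a region, counted for a gene when it lay within 1000 bp of any transcription start site (TSS) of the gene. The DNA around 5 reproducible summits at large subunit genes and 1 at a small subunit gene is printed first, because these windows carry the positions described afterwards. Each runs 5′ to 3′ along the gene's own strand, spans up to 50 bases on either side of the summit and stops before annotated exons. All are read from RefSeq's copy of WBcel235, which is ce11. The rpl-3 window is chrIII:3867526-3867626 on the plus strand, the rpl-20 window is chrIV:4749988-4750088 on the minus strand and the rpl-35 window is chrIII:7854620-7854720 on the plus strand. The rpl-15 window is chrIV:654881-654981 on the minus strand, the rpl-12 window is chrIV:13240652-13240736 on the minus strand and the rps-28 window is chrIV:1659192-1659292 on the plus strand. A further window, chrIV:12391287-12391387 on the minus strand, belongs to rps-23, the member with the strongest summit that was not reproducible. Capitals mark TACGGTA, the letters GCGTGTT or their reverse complement AACACGC, and the splice acceptor letters TTTCAG.
rpl-3: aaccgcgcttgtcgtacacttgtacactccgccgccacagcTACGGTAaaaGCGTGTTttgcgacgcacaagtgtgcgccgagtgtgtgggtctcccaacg
rpl-20: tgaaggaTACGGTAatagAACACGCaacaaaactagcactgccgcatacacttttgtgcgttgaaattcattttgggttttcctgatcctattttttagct
rpl-35: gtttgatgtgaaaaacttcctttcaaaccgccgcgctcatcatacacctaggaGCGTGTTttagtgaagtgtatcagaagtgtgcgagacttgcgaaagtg
rpl-15: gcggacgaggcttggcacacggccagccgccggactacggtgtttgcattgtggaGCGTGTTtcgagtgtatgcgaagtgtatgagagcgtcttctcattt
rpl-12: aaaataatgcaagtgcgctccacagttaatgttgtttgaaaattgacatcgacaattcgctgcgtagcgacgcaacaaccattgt
rps-28: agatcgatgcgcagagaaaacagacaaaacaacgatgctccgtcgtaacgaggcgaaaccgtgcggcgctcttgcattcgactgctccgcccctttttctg
rps-23: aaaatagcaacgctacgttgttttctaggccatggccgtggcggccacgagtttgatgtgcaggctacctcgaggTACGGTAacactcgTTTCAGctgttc

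The first 4 windows each hold the letters GCGTGTT on one strand, and the rpl-12 and rps-28 windows hold neither capitalised heptamer. Among the windows not printed, that of rps-20 holds TACGGTA, that of rpl-27 holds GCGTGTT, and those of rps-15 and rps-19 hold neither. In rpl-3 the centre of TACGGTA lies 6 bp upstream of the summit and that of GCGTGTT 4 bp downstream of it. In rpl-35 and rpl-15 the centre of GCGTGTT lies 6 bp and 8 bp downstream of the summit. In rpl-20 both heptamers lie upstream of the summit, at 40 bp and 29 bp. In rps-23, TACGGTA lies 28 bp downstream of the summit.

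Reproducible summits lay within 1000 bp of 10 of the 81 members, or 12.3% (exact Clopper-Pearson 95% interval 6.08 to 21.5%), against 2.10% of all nuclear protein-coding genes (420 genes). Of these, 6 are large subunit genes, rpl-3, rpl-12, rpl-15, rpl-20, rpl-27 and rpl-35, and 4 are small subunit genes, rps-15, rps-19, rps-20 and rps-28. The interval of the share was 4.53 to 24.3% for large subunit genes (6 of 50) and 3.63 to 29.8% for small subunit genes (4 of 31, or 12.9%), so the intervals overlap. When each summit was counted only for its nearest protein-coding TSS, 5 members kept one, 4 of 50 large subunit genes and 1 of 31 small subunit genes (3.23%), against 1.55% of all genes. None of the 3 P-stalk genes had one. By chromosome, the 10 were 4 of 25 members on I, 2 of 18 on III and 4 of 18 on IV, with none of 10 on II, 8 on V or 2 on X. The upper limits of the interval for these last 3 were 30.8%, 36.9% and 84.2%, all above 12.3%. Shares of all genes by chromosome are not given here. Intervals cover counting error over genes only, since sequencing depth is unknown from region lists.

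Among the large subunit genes, rpl-3 encodes uL3, a protein whose extension reaches towards the peptidyl transferase centre, and had the strongest summit of any member. Its region (chrIII:3867451-3867704, ce11) had a signal of 286 in the caller's own units, and ranked 119 of 20670 nuclear regions in the pooled list. In replicate 1 it had a signal of 170 and rank 118, and in replicate 2 a signal of 116 and rank 127. Its rank was nearly the same in all 3 lists, and the replicate summits lay 278 and 287 bp upstream of the TSS. No other protein-coding TSS lay within 1000 bp of this summit. The rpl-35 gene encodes uL29, which sits at the exit of the peptide tunnel, and its region (chrIII:7854455-7854884) had a pooled signal of 194 and rank 237. Replicate 1 gave a signal of 124 and rank 202 there, and replicate 2 a signal of 63.8 and rank 391. This summit also had no other protein-coding TSS within 1000 bp, and at 464 bp it was the farthest upstream of the 10.

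The region upstream of rpl-20, which encodes eL20, lies at chrIV:4749823-4750252 with a pooled signal of 213 and rank 195. Replicate 1 had a signal of 98.3 and rank 308, and replicate 2 a signal of 119 and rank 125. It is the member whose replicate ranks favoured replicate 2 most among the 10, and its replicate summits lay 306 and 221 bp upstream. The rpl-15 gene, encoding eL15, is host to 2 snoRNA genes, K11H12.12 and K11H12.13, and its region (chrIV:654873-654981) is the narrowest of the 10 at 109 bp. It had a pooled signal of 186 and rank 244, a signal of 111 and rank 240 in replicate 1, and a signal of 72.4 and rank 318 in replicate 2. The summit lay 355 bp upstream of the gene and 570 bp from the nearest small RNA gene, K11H12.13.

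The rpl-12 gene encodes uL11, which forms the base on which the P-stalk sits. Its region (chrIV:13240471-13240900) had a pooled signal of 127 and rank 473, and its summit lay 35 bp upstream of the TSS, the closest of the 10. Replicate 1 gave a signal of 91.4 and rank 335, and replicate 2 a signal of 37.1 and rank 2143. It was therefore far weaker by rank in replicate 2, and the replicate 1 summit fell 6 bp inside the gene. The rpl-27 gene encodes eL27 and is the exception in position. Its summit lay 791 bp downstream of its TSS, beyond the 3′ end of the gene at 1835438, and 13 bp inside egl-30, in an exon outside its coding sequence. The egl-30 gene encodes a G protein alpha subunit and lies on the same strand. The pooled signal there was 124 with rank 495, against 68.4 with rank 606 in replicate 1 and 46.6 with rank 859 in replicate 2. It was the only one of the 10 outside the strongest 560 regions of both replicates.

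Among the small subunit genes, rps-20 encodes uS10, and its region (I, 14469133 to 14469562) had a pooled signal of 223 and rank 180. Replicate 1 gave a signal of 130 and rank 187, and replicate 2 a signal of 85.6 and rank 226. The gene rps-19 encodes eS19, whose human counterpart is mutated in Diamond-Blackfan anaemia, and its region (I, 9625856 to 9626285) had a pooled signal of 211 and rank 202. Replicate 1 gave a signal of 106 and rank 266, and replicate 2 a signal of 89.2 and rank 202. Both genes held similar ranks in the 2 replicates, with replicate summits 247 and 219 bp upstream of rps-20 and 278 and 273 bp upstream of rps-19. The rps-15 gene encodes uS19, a protein of the small subunit head, and its region (I, 8816374 to 8816803) had a pooled signal of 141 and rank 404, with rank 511 in replicate 1 and rank 362 in replicate 2. The rps-28 gene encodes eS28, near the exit of the messenger channel. Its region (chrIV:1659199-1659336) had a pooled signal of 181 and rank 262, with a signal of 142 and rank 159 in replicate 1 but a signal of 34.8 and rank 2834 in replicate 2. Like rpl-12, it met the reproducible list with 1 replicate far weaker than the other.

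Of the 10, 9 had their region among the strongest 560 of replicate 1, 7 among the strongest 560 of replicate 2, and 7 in both. The lists rank regions by the signal value the authors' caller assigned, so signals are compared here only by rank within a list. The distance between the strongest summit of replicate 1 and that of replicate 2 was at most 100 bp for 9 of the 10, with a median of 29.0 bp and a range of 5 to 141 bp. Over the 43 members without a reproducible summit that had summits in both replicates, it was at most 100 bp for 18 (41.9%), with a median of 154 bp. Over the 4705 genes with summits in both replicates it was at most 100 bp for 36.9%, with a median of 190 bp. The 10 were chosen through the reproducible list, which equals the strongest 539 nuclear regions of the pooled list. Their closer summits are not independent of that choice, and the cause was not tested. The same distance is not given here for the other genes with a reproducible summit.

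**Figure D1:**
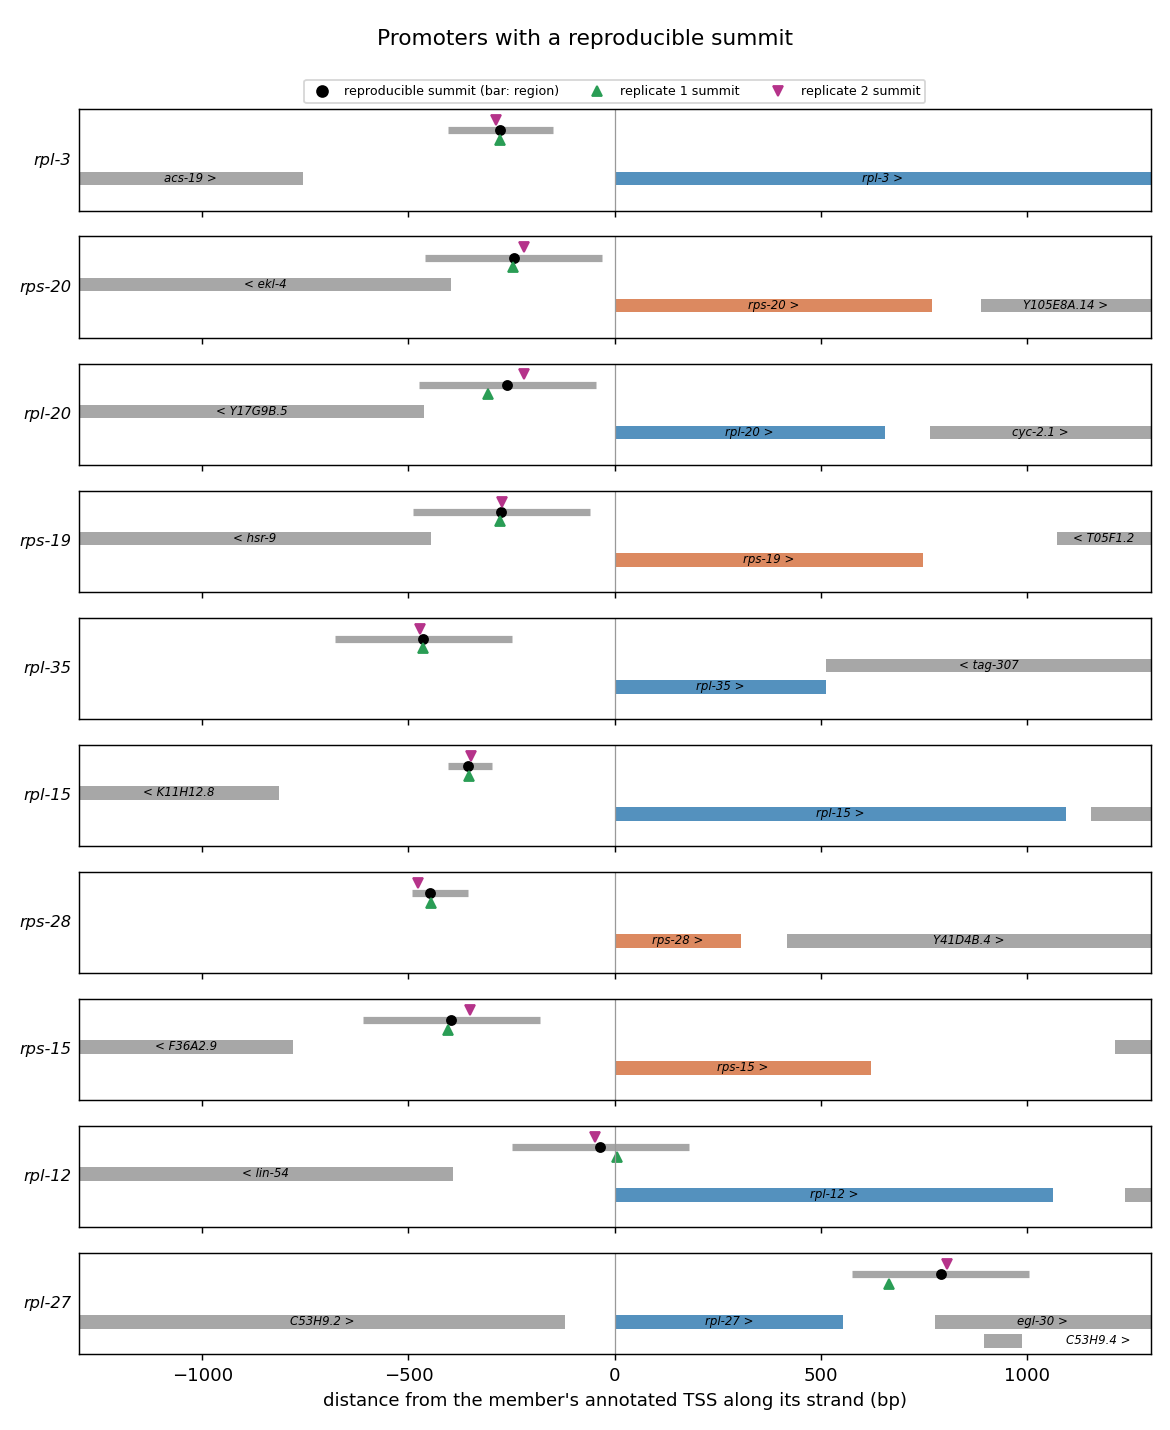
Position of the reproducible region (grey bar), its summit (black circle) and the matching summits of replicate 1 (triangle up) and replicate 2 (triangle down) at the 10 members, as distance in bp along the member's strand from its annotated TSS; coloured bars are the members, grey bars the other protein-coding genes, cut at 1300 bp. All reproducible summits but that of rpl-27 lie left of the member's TSS, and 6 of the 10 summits sit between the member and a gene that points the other way.

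Beyond the 10, members continued to fill the upper ranks of the pooled list. A pooled summit of nuclear rank 1000 or better was found at 22 of 81 members, or 27.2% (interval 17.9 to 38.2%), against 3.80% of all genes. At rank 5000 or better the count was 47 (interval 46.5 to 68.9%), against 13.7%. Any pooled summit at all was found at 67 members, or 82.7% (interval 72.7 to 90.2%), against 39.0%. The reproducible list equals the strongest 539 nuclear regions of the pooled list, so the first of these bands adds to it only the 12 members of rank 540 to 1000, which make up 14.8% of members against 1.70% of all genes. Ranks past 1000 up to 2000 added 9 members (11.1% against 2.80%) and ranks past 2000 up to 5000 added 16 (19.8% against 7.10%). In the weakest band, beyond rank 5000, the 20 members were 24.7%, against 25.2% of all genes. Each gene counts only in the band of its strongest summit. The 47 of 81 members, but only 13.7% of all genes, at rank 5000 or better could therefore not fall in this band. Its shares are of every gene, and they do not show that the remaining members were like the remaining genes.

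The 5 strongest members outside the reproducible list were rps-23, rpl-24.2, rpl-41.1, rpl-41.2 and rps-8. The lowest signal of a reproducible nuclear region was 117. The rps-23 gene encodes uS12, a protein of the decoding centre, and had a pooled signal of 111 and rank 597, with a signal of 79.5 and rank 448 in replicate 1 and a signal of 35.1 and rank 2711 in replicate 2. The rpl-24.2 summit, 163 bp upstream of the gene and inside an intron of C03D6.1, had a pooled signal of 108 and rank 638, with rank 1286 in replicate 1 and rank 498 in replicate 2. The tandem genes rpl-41.1 and rpl-41.2, which both encode the short protein eL41, share 1 summit with a pooled signal of 107 and rank 653. It lies 281 bp upstream of rpl-41.2 and 821 bp downstream of the start of rpl-41.1, and ranked 907 in replicate 1 and 1148 in replicate 2. The rps-8 gene, encoding eS8, had a pooled signal of 104 and rank 700, with rank 536 in replicate 1 and rank 3641 in replicate 2. Replicate 1 ranked rps-23 and rps-8 higher, by a wide margin, and replicate 2 ranked rpl-24.2 higher.

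Large and small subunit genes had close shares at each rank limit. At rank 1000 or better there were 14 of 50 large subunit genes (28.0%) and 8 of 31 small subunit genes (25.8%), and with any pooled summit 40 (80.0%) and 27 (87.1%). The median rank of the strongest summit was 2888 for the large subunit and 2121 for the small subunit. Over all 67 members with a summit the median was in the top 13.2%, against the top 38.2% for all 7780 genes with one. In replicate 1 the member median was in the top 11.8% (all genes 38.6%), and in replicate 2 in the top 15.1% (all genes 39.9%). In replicate 1 the median of the small subunit stood higher (top 9.58% against 12.7%), and in replicate 2 that of the large subunit did (top 11.5% against 15.8%), so the order of the subunits was not the same in both replicates.

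**Figure D2:**
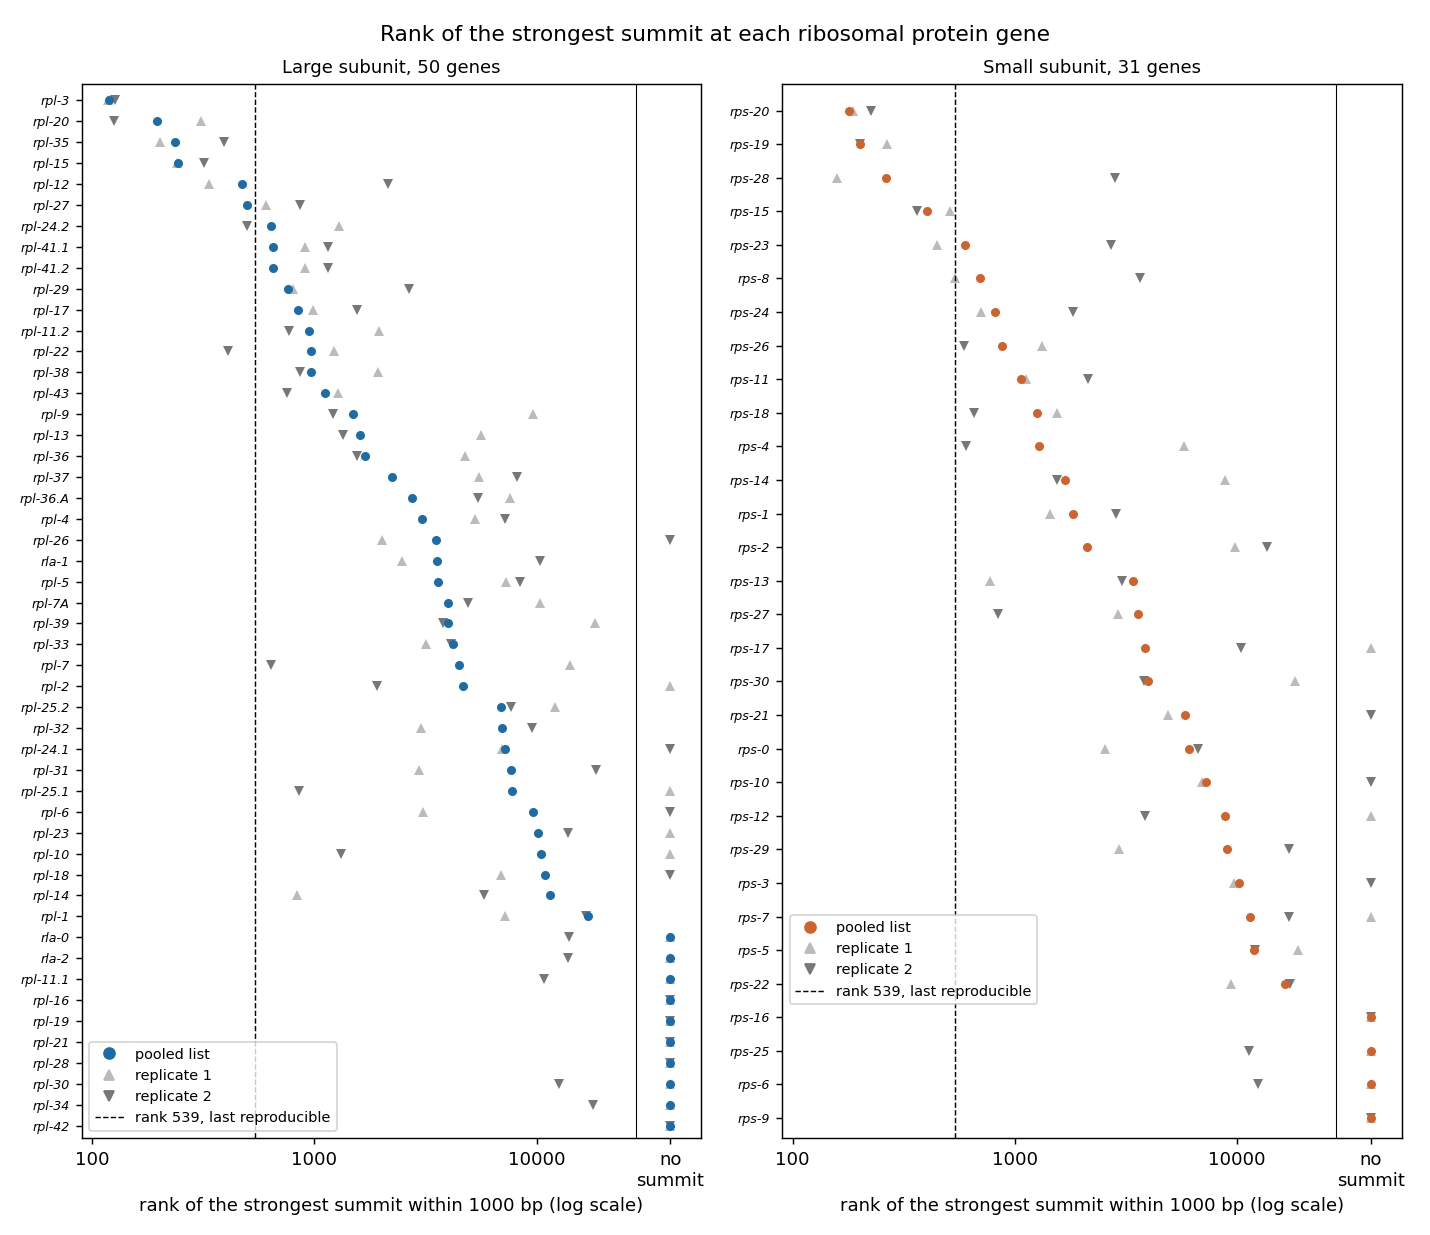
Rank of the strongest summit within 1000 bp of each member in the pooled list (circles), replicate 1 (triangles up) and replicate 2 (triangles down), on a log scale, with large subunit genes left and small subunit genes right; the dashed line is rank 539, the last nuclear reproducible region, and the right-hand column holds members with no summit in that list. The 3 ranks lie close together for rpl-3 and spread over more than a factor of 10 for members such as rps-28, rpl-7 and rpl-14.

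A replicate 1 summit was found at 60 members, or 74.1% (interval 63.1 to 83.2%), against 40.4% of all genes, and a replicate 2 summit at 67 members, or 82.7%, against 37.0%. Both replicates listed one at 53 members, or 65.4% (interval 54.0 to 75.7%), against 23.6%. With rank 1000 or better required in both, 8 members remained, or 9.88% (interval 4.36 to 18.5%), against 2.19%. Each replicate alone placed 19 members in its first 1000, so 11 members were there in replicate 1 only and 11 others in replicate 2 only. Over all genes, 743 were in the first 1000 of replicate 1 and 705 in that of replicate 2, with 438 in both, 305 in replicate 1 only and 267 in replicate 2 only. The part found in both was thus 8 of 19 for members and 438 of 743 for all genes, counted from replicate 1. The 8 were 5 large and 3 small subunit genes and all are among the 10 with a reproducible summit, while rpl-12 and rps-28 were in the first 1000 of replicate 1 only. Spearman's rho between the ranks in replicate 1 and replicate 2 was 0.55 over the 53 members and 0.43 over the 4705 genes with a summit in both, as a description across genes that are not independent. Members outside the reproducible list could rank high in just 1 replicate: rpl-14 (eL14) ranked 831 in replicate 1 and 5773 in replicate 2, and rpl-7 (uL30) ranked 14207 in replicate 1 and 639 in replicate 2. These genes were chosen for mention after their values were seen.

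No pooled summit was found at 14 members. A summit in replicate 2 alone, at rank 10855 or worse, was found at 7 of them: rla-0, rla-2, rpl-11.1, rpl-30, rpl-34, rps-6 and rps-25. The other 7, rpl-16, rpl-19, rpl-21, rpl-28, rpl-42, rps-9 and rps-16, had none in any list, which is 8.64% of members against 44.2% of all genes. They are 5 large and 2 small subunit genes, and rpl-42 is also among the 4 members that RefSeq does not name a ribosomal protein. Of the P-stalk genes, rla-1 had a pooled summit at rank 3566, while rla-0 and rla-2 were listed in replicate 2 at ranks 13941 and 13881. The paralogues rpl-11.1 and rpl-11.2, which both encode uL5, differed: rpl-11.2 had a pooled summit of rank 950 at 341 bp upstream, and rpl-11.1 had none. In the pair rpl-25.1 and rpl-25.2, which encode uL23, both had a weaker pooled summit, at ranks 7730 and 6931. They differed in position and replicates. The rpl-25.1 summit lay 252 bp downstream of the TSS, with rank 849 in replicate 2 and no summit in replicate 1. The rpl-25.2 summit lay 291 bp upstream, with ranks 12134 in replicate 1 and 7674 in replicate 2.

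**Figure D3:**
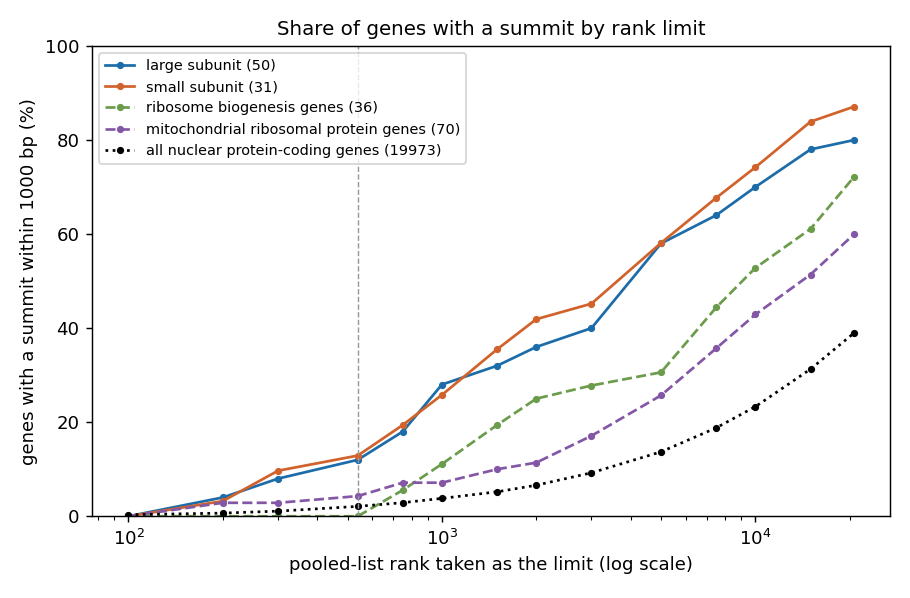
Share of genes with a pooled summit within 1000 bp (y axis, %) as the rank limit in the pooled list is relaxed (x axis, log scale), for the 50 large and 31 small subunit genes, 36 ribosome biogenesis genes, 70 mitochondrial ribosomal protein genes and all 19973 protein-coding genes; the dashed line is rank 539. The curves of both subunits run together and lie above the other 3 from rank 200 on, reaching 29 of 50 and 18 of 31 genes at rank 5000 against 13.7% of all genes.

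Member summits lay mostly 200 to 500 bp upstream of the gene. The median position of the 10 reproducible summits was 276 bp upstream of the TSS, and 8 of them (80.0%) lay 200 to 500 bp upstream. For the 420 genes with a reproducible summit the median was 232 bp upstream, with 35.7% in that range. In the pooled list the strongest summits of the 67 members had a median of 284 bp upstream and 62.7% of them (42) lay 200 to 500 bp upstream, against a median of 143 bp and 23.2% for all 7780 genes. Upstream positions made up 86.6% for members and 63.4% for all genes. The medians of the large and small subunit were 280 and 285 bp upstream, and those of all members in replicate 1 and replicate 2 were 278 and 285 bp upstream (all genes 134 and 135 bp). The 57 members without a reproducible summit had a median of 285 bp upstream, with 59.6% in the 200 to 500 bp range, so the 10 do not set the median. In the 3 ranked lists 99.2 to 99.5% of regions have 1 fixed width (430 bp in the pooled list, 420 bp in replicate 1, 444 bp in replicate 2) with the summit in the middle.

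**Figure D4:**
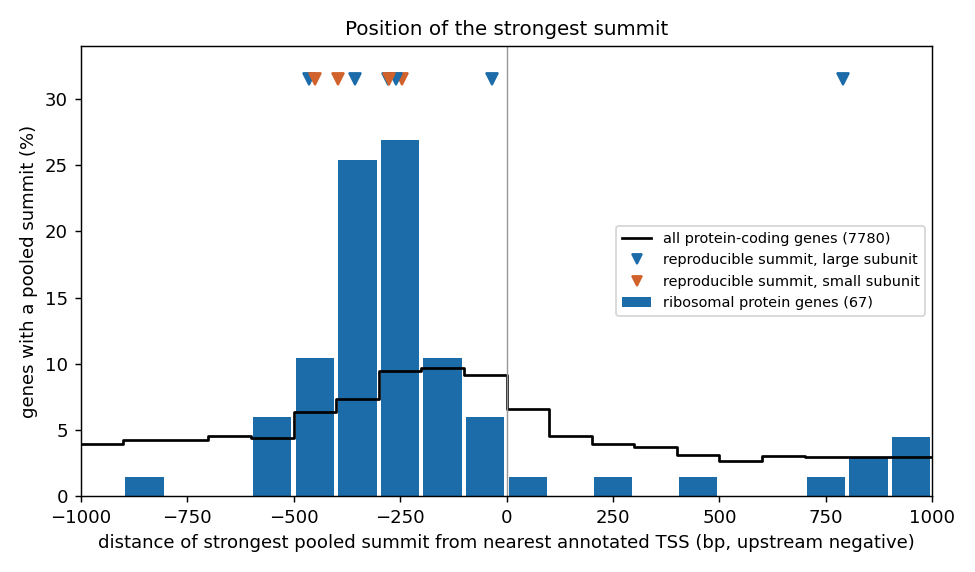
Distance of the strongest pooled summit from the nearest annotated TSS (x axis, bp, upstream negative, bins of 100 bp) as a share of the genes with a pooled summit (y axis, %), for 67 ribosomal protein genes (bars) and 7780 protein-coding genes (line); the markers at the top show the 10 reproducible summits by subunit. The bins from 400 to 200 bp upstream hold 25.4% and 26.9% of members against 7.31% and 9.46% of all genes.

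The annotated start itself differed between members and other genes. The letters TTTCAG, the usual splice acceptor in C. elegans, ended directly at the annotated TSS in 40 of 81 members (49.4%) and in 12.3% of all genes. It did so in 25 of 50 large subunit genes, 15 of 31 small subunit genes and 8 of the 10 members with a reproducible summit. For such a gene the annotated TSS is at a splice acceptor's letters, so a distance upstream is measured from there and not from a mapped site of initiation. This position was examined after the distances were known.

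Ribosomal protein genes stood in crowded surroundings. Another protein-coding TSS lay within 1000 bp of a member's TSS for 59 of 81 members, or 72.8% (interval 61.8 to 82.1%), against 25.5% of all genes. It was on the other strand for 49, or 60.5% (interval 49.0 to 71.2%), against 19.5%, and on the same strand for 25, or 30.9%, against 7.31%. With a limit of 500 bp the count was 23 (28.4% against 12.3%) and with 2000 bp it was 73 (90.1% against 50.6%). Members are also short, with a median length of 754 bp against 2027 bp for all genes, and 64 of the 81 are under 1000 bp, so the window often ran past the end of the gene, as at rpl-27.

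Of the 10 reproducible summits, 8 had at least 1 further protein-coding TSS within 1000 bp and 5 were nearer to that TSS than to the member's. The rps-20 summit lay 152 bp upstream of ekl-4, which encodes a DNA methyltransferase 1-associated protein, on the other strand, and the 2 starts are 397 bp apart. The rps-19 summit lay 170 bp upstream of hsr-9, with starts 445 bp apart. The rpl-20 summit lay 202 bp upstream of Y17G9B.5, named for a mitochondrial signalling intermediate of the Toll pathway, with starts 462 bp apart. In these 3 promoters the summit is between both starts and closer to the partner of the ribosomal protein gene. The rps-15 summit lay 385 bp upstream of F36A2.9, a lipase domain gene, and 396 bp from rps-15, so it is nearly midway between starts 781 bp apart.

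At rpl-12 the start of lin-54, which encodes a DNA-binding subunit of the DREAM complex, is 393 bp away on the other strand, and the summit was on the rpl-12 side, 35 bp from rpl-12 and 358 bp from lin-54. At rpl-15 the start of K11H12.8 is 814 bp away on the other strand and the summit lay 459 bp from it. The Y41D4B.4 start, 868 bp from the rps-28 summit on the same strand, lies beyond the rps-28 gene. At rpl-27 both egl-30 and C53H9.4 start within 106 bp of the summit on the same strand, far nearer than rpl-27. Only rpl-3 and rpl-35 had no other protein-coding TSS within 1000 bp of the summit. A reproducible summit was found at 6 of the 49 members with an other-strand neighbour (12.2%) and at 4 of the 32 without one (12.5%). Over all genes these shares were 4.46% and 1.53%.

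Members also share promoters with one another. The 67 members with a pooled summit made 97 gene and summit pairs over 91 distinct summits, since 6 summits served 2 members each. The pairs were rpl-24.1 and rps-10, rpl-36 and rps-14, and rpl-39 and rps-30, whose starts face apart over 610, 663 and 499 bp, and the tandem rpl-41.1 and rpl-41.2. In each of the 3 divergent pairs a large subunit gene faces a small subunit gene. Their shared strongest summits ranked 7232, 1687 and 3993 in the pooled list, so none was reproducible. How many summits serve more than 1 gene over all genes is not given here. More than 1 pooled summit was found at 26 of 81 members, against 2383 of all 19973 genes. The mean was 1.20 summits per member against 0.557 per gene over all genes.

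The 6 short sequences searched, on both strands, in the same windows around each summit were these: TAATTA and its variant TAATTG (the kind of site homeodomain proteins are known for, with 5 letters in common), the repeat GAGAGA, the TATA box TATAAA, the E-box CACGTG and the splice acceptor TTTCAG. No match to TAATTA or TAATTG was present at the 10 member summits, and among the 213 other reproducible summits near a protein-coding TSS and away from small RNA genes 2.35% and 1.88% held one. In the 500 bp upstream of the TSS, TAATTA was present for 24.7% of members and 26.5% of all genes, and TAATTG for 33.3% and 38.0%. GAGAGA was at none of the 10, against 14.6% of the 213, but at 8 of the 53 strongest summits of members outside the reproducible list (15.1%), and it was present in the upstream 500 bp of 31 of 81 members and 5987 of 19973 genes. TTTCAG was at none of the 10, against 4.69% of the 213, and at 13 of those 53 weaker summits (24.5%). In the upstream 500 bp it was present for 86.4% of members and 65.4% of all genes. As described above, it ended directly at the TSS in 49.4% of members and 12.3% of all genes, so the upstream difference is not separate from that one. CACGTG was at none of the 10, against 3.29% of the 213. In the upstream 500 bp CACGTG was present for 1 of 81 members, rpl-14 (1.23%), against 8.61% of all genes. TATAAA was at 1 of the 10, rpl-27, against 3.76% of the 213. A match is a description of letters, and its absence says only that these letters are not in the window.

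The 2 heptamers were added after the windows had been read, so their counts at these 10 summits are a description of how they were found. GCGTGTT was at 5 of the 10, rpl-3, rpl-15, rpl-20, rpl-27 and rpl-35, all large subunit genes, against 6.10% of the 213 other promoter summits and 4.45% of all 539. Of these 5 summits, that of rpl-27 lies 13 bp inside egl-30, and that of rpl-20 is nearer to the start of Y17G9B.5. GCGTGTT was at 1 of 53 strongest summits of the weaker members (1.89%). In the upstream 500 bp it was present for 7 members (8.64%), all of the large subunit, against 3.77% of all genes. These were rpl-3, rpl-15, rpl-18, rpl-20, rpl-31, rpl-33 and rpl-35. Of the 7, 4 are among the 10 whose windows were read before it was chosen. This share and its subunit therefore follow in part from that choice. TACGGTA was at 3 of the 10, rpl-3, rpl-20 and rps-20, against 1.88% of the 213, and at 4 of the 53 weaker summits (7.55%). In the upstream 500 bp it was present for 17 members (21.0%), 11 large and 6 small subunit genes, against 7.24% of all genes. Of these 17, 3 are likewise among the 10. Another of the 17 is rps-23, whose window is printed above and holds 1 of the 4 matches at weaker summits. The GC content of the 10 windows had a median of 49.5% (38.6 to 59.4%), equal to that of the 213, and that of the weaker member summits was 44.6%. Over the upstream 500 bp the median was 33.8% for members and for all genes.

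Other genes of ribosome function are given for comparison, without a test. Over all genes, 2.10% had a reproducible summit, 3.80% a pooled summit of rank 1000 or better and 39.0% any pooled summit. Of 70 mitochondrial ribosomal protein genes, 3 (4.29%) had a reproducible summit, mrpl-23, mrpl-39 and mrps-34, at pooled ranks 173, 191 and 414, and the next, mrpl-12, ranked 551. At the pooled level, 5 of the 70 (7.14%) were at rank 1000 or better and 42 (60.0%) had any pooled summit. Of 36 ribosome biogenesis genes, none had a reproducible summit, with an upper limit of the exact interval of 9.74%, and 26 (72.2%) had a pooled one. The strongest were rbd-1, ncl-1, rpoa-12 and nol-14, at ranks 748, 750, 792 and 831. The 3 ribosome components outside the naming rule, ubl-1, ubq-2 and rack-1, had pooled summits at ranks 2664, 3424 and 13768 and no reproducible one. A snoRNA gene lies within 13 members, and all 13 had a pooled summit. So did 54 of the 68 members without a snoRNA gene (79.4%), against 39.0% of all genes. A reproducible summit was found at 1 of the 13, rpl-15 (7.69%, interval 0.195 to 36.0%), and at 9 of the 68 (13.2%, interval 6.23 to 23.6%), and these intervals overlap.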

How the data were processed

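Lists of ChIP-seq regions for LIN-11-GFP in 2 biological replicates were used as deposited, on assembly ce11 per the deposited notes. The reproducible list holds 560 regions, the pooled list 20692, replicate 1 21441 and replicate 2 18735. The signal value of each region was assigned by the authors' caller relative to 1 shared control alignment, on a scale the deposited notes do not state, and was used only for ranks within a list. Aligner, caller, versions, thresholds and sequencing depth: not given in the sources used here. Summits are the region start plus the deposited offset. The 21 mitochondrial reproducible regions were left out, and ranks are among nuclear regions.

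Gene models are Ensembl release 115 on WBcel235, the same assembly as ce11, with sequence and product names from RefSeq. Distances are to the nearest TSS of a gene. No test was made, since there is 1 group. The main counts have exact 95% Clopper-Pearson intervals and stand beside the same share over all nuclear protein-coding genes. Some further counts are given without an interval, without that share or without both. Named genes are the members with a reproducible summit, the 5 next by pooled rank, neighbours of those summits and up to 4 genes of each comparison list, and other names are lists of a count. The paralogue pairs of rpl-11 and rpl-25, the P-stalk genes, the members that share summits, rpl-7 and rpl-14 were named outside this rule, after their values were seen. Of 41 biogenesis entries, 36 were found in the annotation. The members, lists and windows were chosen with earlier results of these data known. Scripts used Python 3.11.15, numpy 2.4.6, scipy 1.17.1 and matplotlib 3.10.9, and the summit assignment was tested on simulated data. Alternatives changed the window, the list, the assignment of summits and the replicate used.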

Additional observations from a re-analysis of the deposited data

How the results depend on the processing

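Counting each summit only for its nearest protein-coding TSS left 5 members with a reproducible summit (rpl-3, rpl-12, rpl-15, rpl-35 and rps-28), or 6.17% against 1.55% of all genes, with 4 large subunit members and 1 small subunit member. Without the members that have an other-strand neighbour, 4 of 32 members remained (12.5% against 1.53% of all such genes). These were 3 of 21 large and 1 of 11 small subunit members. The median distance was -276 bp with reproducible and -284 bp with pooled summits. With a limit of 500 bp, 23 members had a neighbouring TSS (28.4% against 12.3% of all genes). Without the 10, the median member rank was in the top 17.3%. Taking the strongest regions of 1 replicate in place of the reproducible list gave 9 to 11 members (11.1 to 13.6%), against 2.00 to 2.05% of all genes. These were 5 to 6 large and 3 to 6 small subunit genes. Without replicate 1, rpl-12, rpl-27 and rps-28 were lost and rpl-22 and rpl-24.2 gained, and without replicate 2, rpl-27 was lost and rps-8 and rps-23 gained. Either replicate's list in place of the pooled one gave 60 to 67 members with a summit. That is 74.1% against 40.4% of all genes in replicate 1 and 82.7% against 37.0% in replicate 2. The member median was then in the top 11.8 to 15.1%. A window of 500 bp gave 9 members with a reproducible summit (11.1% against 1.51% of all genes). A window of 2000 bp gave 11 (13.6% against 3.12%), adding rpl-11.1. Of 51 alternative values, 43 stayed within 1.5 times the count or 1 SD between replicates. Unknown depth limits every absence to these lists. No paired analysis was possible because there is 1 group.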
